A study of Mus musculus with 2 samples.

Results

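The cells described here are γδ thymocyte barcodes that held S1pr1 transcripts and no Rag1 transcripts. Members were chosen by their own counts: in both deposited libraries, a barcode with at least 500 genes detected, at least 1 S1pr1 UMI (a unique molecular identifier, which counts 1 captured RNA molecule) and 0 Rag1 UMIs. This rule found 188 members among 1158 barcodes with at least 500 genes, out of 1398 barcodes deposited. Of these members, 137 came from the TMREhi library and 51 from the TMRElo library. S1pr1 and Rag1 therefore chose the members and are given below as a description only.

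S1PR1 is the receptor for sphingosine 1-phosphate, a lipid that is abundant in blood and scarce in thymic tissue, and thymocytes that display the receptor leave the thymus along that gradient. In maturing αβ thymocytes the receptor gene is switched on by the transcription factor KLF2, whose own gene is driven by FOXO1, while the membrane protein CD69 removes S1PR1 from the cell surface. RAG1 is part of the recombinase that assembles antigen receptor genes, and its transcript falls once rearrangement is complete. S1pr1, Foxo1, Klf2 and Tdrp, which encodes a testis development related protein, had been proposed as the marker genes of these barcodes.

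Both libraries came from wild-type, untreated C57BL/6 mice. Thymic lobes of embryonic day 15 were held in culture for 2 days, dissociated and stained with TMRE, a dye that gathers in mitochondria with a high membrane potential. CD24+ γδ T cells were sorted as TMREhi (bright) or TMRElo (dim), and each sort fraction gave 1 library with the 10x 5′ kit. The number of embryos pooled is not given in the sources used here, and with 1 library per fraction no test between conditions could be run and p-values are not reported.

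The libraries differed in depth. TMREhi held 4350485 UMIs, and its 1025 barcodes with at least 500 genes had a median of 2031 UMIs, whereas TMRElo held 245048 UMIs and its 133 such barcodes had a median of 1113. Within a library, barcodes were split by the share of UMIs from ribosomal protein genes, below 15% (low-ribosomal) or from 15% (high-ribosomal). In each class every member was paired with a comparator of nearly equal total UMIs that held neither S1pr1 nor Rag1 UMIs. This gave 82 pairs in the TMREhi low-ribosomal class, 55 in the TMREhi high-ribosomal class and 46 in the TMRElo low-ribosomal class, and these are the comparisons reported. The TMRElo high-ribosomal class gave 5 pairs only and is given as values. Levels are UMIs summed over a group and expressed as CPM, which sets every group to the same total, and levels are compared within a gene, not between genes. Ratios are members over comparators. Intervals are exact 95% intervals for counting error alone, so spread between embryos, between sorts or among single cells is not in them.

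S1pr1 (chr3:115710433-115715072, minus strand, in the GENCODE annotation of GRCm38) was captured sparsely. Of the 82 TMREhi low-ribosomal members, 57 held 1 S1pr1 UMI, 14 held 2 and 11 held 3 or more. Of the 55 TMREhi high-ribosomal members, 44 held 1 UMI. Of the 46 TMRElo low-ribosomal members, 28 held 1 UMI, and no member in any class held more than 5. Most members were thus called on a single molecule, and barcodes with 0 S1pr1 UMIs cannot be taken as cells without the transcript. Had all barcodes without Rag1 UMIs in a class shared 1 S1pr1 level, 107, 57.3 and 53.5 would be expected to hold a UMI. The members found in these 3 classes were 82, 55 and 46. Whether members are a separate population was not tested. The member with the fewest genes had 513, and the 15 barcodes that met the other conditions but fell short on genes reached up to 495. Only 5 barcodes with an S1pr1 UMI were left out for a Rag1 UMI.

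Members were a larger share of TMRElo than of TMREhi barcodes. In TMRElo they were 51 of 133 barcodes, or 38.3% (30.1 to 47.2), and in TMREhi 137 of 1025, or 13.4% (11.3 to 15.6). By class the shares were 11.2% in TMREhi low-ribosomal, 18.8% in TMREhi high-ribosomal and 39.3% in TMRElo low-ribosomal barcodes, and 5 of 16 TMRElo high-ribosomal barcodes were members. Because depth differs, barcodes without Rag1 UMIs were also thinned to 932 UMIs each, leaving out shallower ones. Counted with or without Rag1 UMIs, 126 barcodes in TMREhi and 33 in TMRElo were shallower than this. The share with an S1pr1 UMI was then 8.95% (7.0 to 11.2) in TMREhi, 67 of 749 barcodes, and 29.0% (20.4 to 38.9) in TMRElo, 29 of 100. Within the low-ribosomal class alone the thinned shares were 10.3% and 33.3%. The higher share in the TMRElo library was thus also seen at equal depth. It is a description of 2 libraries, in the gene that chose the members.

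Barcodes with a Rag1 UMI, which the rule leaves out, seldom held S1pr1. In the TMREhi low-ribosomal class 3 of 197 of them held an S1pr1 UMI, or 1.52% (0.32 to 4.39) at a median of 1490 UMIs, against 15.3% of the 536 barcodes without a Rag1 UMI, at a median of 1585. In the TMREhi high-ribosomal class it was 2 of 25, at a median of 10801 UMIs. After thinning, 0 of 125 barcodes with a Rag1 UMI held S1pr1 in the low-ribosomal class, which allows a share of up to 2.91%.

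**Figure D1:**
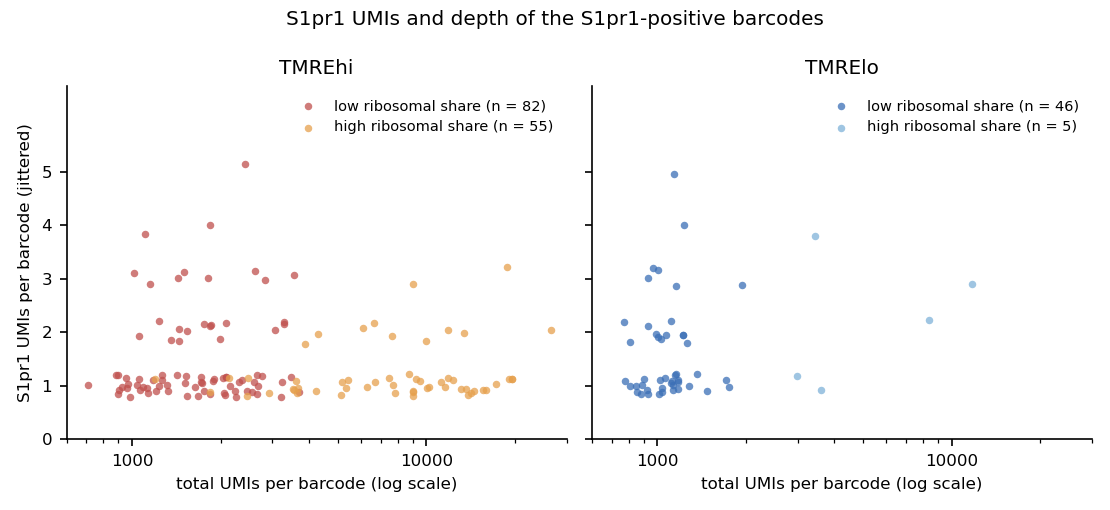
S1pr1 UMIs per barcode against total UMIs (log axis) in the 188 members, by library and ribosomal-share class; each point is 1 member, shifted slightly up or down so that points do not hide each other. Members sit at 1 to 5 S1pr1 UMIs across the whole depth range of their class, most of them at 1.

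Members and comparators were close in depth and in mitochondrial share. Median UMIs were 1719 and 1719 in TMREhi low-ribosomal barcodes, 8991 and 8675 in the high-ribosomal class, and 1066 and 1014.5 in TMRElo. The median mitochondrial share was 17.7% in members and 19.1% in comparators of the TMREhi low-ribosomal class, 3.71% and 3.65% in the high-ribosomal class, and 14.8% and 14.0% in TMRElo. Only 4 of the 82 TMREhi low-ribosomal members and 8 of the 46 in TMRElo had at most 10% mitochondrial UMIs, against 52 of 55 in the high-ribosomal class. Malat1, a nuclear RNA, took 1.13% of the summed UMIs in members and 1.10% in comparators of the TMREhi low-ribosomal class, 0.300% and 0.211% in the high-ribosomal class, and 3.06% and 3.51% in TMRElo. The low-ribosomal results therefore rest on barcodes with a high mitochondrial share. A limit of 10% left fewer than 10 pairs there, so the part that a high share plays was not tested. Comparators were also matched on mitochondrial share as well as depth. The log2 ratios of Klf3, Ahnak, Klrd1 and Baz1a, smaller in size under that matching, are given below. For the proposed identity of γδ T cells, all 7 markers (Trdc, 3 Tcrg constant genes and the 3 Cd3 genes) were detected. At least 1 UMI of them was held by 81 of the 82 TMREhi low-ribosomal members and 80 of their comparators, so this did not set members apart. Trdc alone was seen in 50 of these members and in 20 of the 46 in TMRElo. Markers of αβ thymocytes were held by 20 members and 20 comparators of the TMREhi low-ribosomal class.

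The promoters of 5 genes that return below are shown here to set the genes higher in members side by side at the sequence level, with matches to the core letters bound by Krüppel-like factors in capitals. Klf2 and Klf3 encode such factors, and Itgb7, Ms4a4b and Il7r are genes that stood at least 2-fold higher in TMREhi low-ribosomal members. Each window of 300 bases spans the gene start as RefSeq places it on GRCm38.p6, with 50 of them after it, and reads 5′ to 3′ on the gene's strand. For Il7r the longest GENCODE transcript starts further upstream, at position 9530176, which lies outside the window. The motif searched was CACCC or its reverse complement GGGTG.
Klf2 (chr8:72318812-72319111, plus strand): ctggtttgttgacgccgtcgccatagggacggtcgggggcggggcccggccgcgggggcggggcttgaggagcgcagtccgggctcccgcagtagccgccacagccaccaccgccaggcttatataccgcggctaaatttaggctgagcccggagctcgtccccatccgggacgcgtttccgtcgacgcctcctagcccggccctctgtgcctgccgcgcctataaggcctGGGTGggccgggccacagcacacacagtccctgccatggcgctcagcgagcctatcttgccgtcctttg
Klf3 (chr5:64803271-64803570, plus strand): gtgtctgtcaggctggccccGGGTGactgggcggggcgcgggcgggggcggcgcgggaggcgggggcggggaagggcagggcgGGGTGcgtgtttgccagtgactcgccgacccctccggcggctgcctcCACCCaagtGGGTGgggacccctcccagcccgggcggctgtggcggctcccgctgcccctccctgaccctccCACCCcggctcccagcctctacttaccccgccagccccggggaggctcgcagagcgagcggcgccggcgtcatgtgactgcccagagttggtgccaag
Itgb7 (chr15:102231886-102232185, minus strand): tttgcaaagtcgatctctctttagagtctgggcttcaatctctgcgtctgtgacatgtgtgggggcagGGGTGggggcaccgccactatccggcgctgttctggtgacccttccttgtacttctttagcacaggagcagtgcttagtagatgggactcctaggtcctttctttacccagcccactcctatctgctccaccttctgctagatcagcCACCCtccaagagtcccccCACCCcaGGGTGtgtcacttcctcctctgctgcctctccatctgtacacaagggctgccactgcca
Ms4a4b (chr19:11443308-11443607, plus strand): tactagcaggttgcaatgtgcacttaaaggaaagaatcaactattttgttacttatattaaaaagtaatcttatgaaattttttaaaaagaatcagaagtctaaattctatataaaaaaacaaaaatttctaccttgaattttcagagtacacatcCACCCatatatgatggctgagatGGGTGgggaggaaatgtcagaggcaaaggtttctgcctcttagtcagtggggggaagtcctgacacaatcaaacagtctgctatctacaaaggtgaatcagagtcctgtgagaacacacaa
Il7r (chr15:9529827-9530126, minus strand): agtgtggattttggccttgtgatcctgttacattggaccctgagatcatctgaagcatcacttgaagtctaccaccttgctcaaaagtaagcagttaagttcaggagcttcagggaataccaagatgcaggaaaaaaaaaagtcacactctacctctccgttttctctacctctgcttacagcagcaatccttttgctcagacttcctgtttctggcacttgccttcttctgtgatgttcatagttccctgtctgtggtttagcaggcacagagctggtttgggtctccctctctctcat
Klf3 held 5 matches, Itgb7 4, Ms4a4b 2, Klf2 1 and Il7r 0. The motif is common: 18895 of 32851 RefSeq promoter windows, 57.5%, held at least 1 match. The forkhead letters GTAAACA or TGTTTAC, present in 3.65% of windows, were in none of these 5, nor in that of Foxo1. A match is a run of letters and not evidence of binding.

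The markers proposed for these barcodes were only partly borne out. Klf2, which encodes the activator of S1pr1, stood at 310 CPM in TMREhi low-ribosomal members and 114 in their comparators, 46 against 17 UMIs, a ratio of 2.71 (1.52 to 5.03). High-ribosomal members carried 301 CPM against 90.4, 153 against 46 UMIs, a ratio of 3.32 (2.38 to 4.73). It was seen in 27 of 82 members against 11 of 82 comparators, and in 45 of 55 against 19 of 55. In TMRElo it did not set members apart: 296 CPM in both groups, 15 UMIs each, a ratio of 1.0 (0.456 to 2.20).

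Foxo1 encodes the forkhead factor upstream of Klf2. It was higher than the counting error in the TMREhi high-ribosomal class only, with 35 against 11 UMIs and a ratio of 3.18 (1.58 to 6.94). In TMREhi low-ribosomal members it had 24 against 18 UMIs, a ratio of 1.33 (0.694 to 2.61), and in TMRElo 19 against 21, a ratio of 0.906 (0.461 to 1.77). Whether these classes differ was not tested. Tdrp was rare. It had 7 UMIs in 5 TMREhi low-ribosomal members against 0 in comparators, at least 2.33-fold higher against a floor of 3 UMIs over the group, 1 against 0 in the high-ribosomal class, and 5 against 6 in TMRElo. In the TMRElo high-ribosomal class, Klf2 had 15 UMIs in 5 members against 8 in 5 comparators, and Tdrp 5 against 1. The name "S1pr1-positive barcodes" is therefore used here, since the full marker set held in none of the classes.

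Across all genes with at least 20 UMIs over both groups, few passed a 2-fold limit in either direction, taken after adding 1 UMI to both counts. In the TMREhi low-ribosomal class 130 of 3196 genes were at least 2-fold higher (4.07%) and 132 at least 2-fold lower (4.13%). In the TMREhi high-ribosomal class 259 of 5462 were higher (4.74%) and 151 lower (2.76%). In the TMRElo low-ribosomal class 43 of 981 were higher (4.38%) and 28 lower (2.85%). These shares are the background against which the counts below are read, and at these depths many such genes carry few UMIs. The median log2 ratio over all tested genes was 0.00 in the first class, 0.07 in the second and 0.05 in TMRElo.

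Among the listed Krüppel-like and forkhead factor genes, few besides Klf2 passed the 2-fold limit. All 8 tested of 13 listed lay above 0 in the low-ribosomal class, with a median log2 ratio of 0.54, and 2 of them, Klf2 and Klf3, passed the limit. Klf3, which encodes a repressor of the same family, had 53 against 21 UMIs in the low-ribosomal class, a ratio of 2.52 (1.5 to 4.40). It had 64 against 37 in the high-ribosomal class, a ratio of 1.73 (1.14 to 2.67), and 34 against 29 in TMRElo, a ratio of 1.17 (0.694 to 2.0). When comparators were matched on mitochondrial share as well as depth, its TMREhi low-ribosomal log2 ratio was 0.63 in place of 1.30. The list in the high-ribosomal class had a median of 0.42 over 8 genes, with Klf2 and Foxo1 past the limit upward and Foxo3 downward (7 against 16 UMIs), a call that was lost without depth matching at a log2 ratio of -0.41. In TMRElo the median was -0.03 over 5 genes and none passed.
The other factors tested in the TMREhi low-ribosomal class did not pass the limit. Foxp1, a forkhead gene tied to T cell quiescence, had 55 against 54 UMIs in TMREhi low-ribosomal barcodes, 57 against 54 in the high-ribosomal class and 44 against 45 in TMRElo. Klf6 had 28 against 23 UMIs in the TMREhi low-ribosomal class, Klf13 27 against 24, and Foxo3 15 against 9. Klf7 had 21 against 10, a ratio of 2.10 (0.946 to 4.99) that reached 1 in its interval.

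Genes of egress and homing receptors did not move as a block. Of 22 listed, 13 were tested in the TMREhi low-ribosomal class, with 5 above 0, 8 below and a median of -0.12. Of 15 tested in the high-ribosomal class, 11 lay above 0 with a median of 0.30, and 7 were tested in TMRElo with a median of 0.10. Past the limit were Itgb7 upward and Ccr4 downward in the TMREhi low-ribosomal class (the Ccr4 call was lost without depth matching, at a log2 ratio of -0.12 in place of -1.17), Ccr7 and S1pr4 upward in the high-ribosomal class, and none in TMRElo. S1pr4, another sphingosine 1-phosphate receptor gene, had 31 against 8 UMIs there, a ratio of 3.87 (1.74 to 9.75).

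The integrin chains α4 and β7, which pair to form a receptor for gut and vascular addressins, were both higher in TMREhi low-ribosomal members. Itgb7 had 102 against 46 UMIs, a ratio of 2.22 (1.55 to 3.21), with 68 against 49 in the high-ribosomal class, 1.39 (0.947 to 2.05), and 22 against 30 in TMRElo, 0.734 (0.404 to 1.32). Itga4 had 131 against 87 UMIs in the TMREhi low-ribosomal class, a ratio of 1.51 (1.14 to 2.0). It had 104 against 69 in the high-ribosomal class, 1.51 (1.10 to 2.07), and 101 against 61 in TMRElo, 1.66 (1.19 to 2.32). Itga4 was thus above its counting error in all 3 classes, though under the 2-fold limit in each. Itgb1, whose β1 chain also pairs with α4, lay below 1 in each, with ratios of 0.674, 0.666 and 0.688.

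Ccr7, the receptor for the chemokines that guide cells to the thymic medulla and lymph nodes, had 44 against 15 UMIs in the high-ribosomal class, a ratio of 2.93 (1.60 to 5.67), and 17 against 11 in the low-ribosomal class. Cd69 had 15 against 21 UMIs, a ratio of 0.714 (0.342 to 1.45), 27 against 22, and 5 against 7, so a lower level in members was not detectable at this depth. Ccr9, the receptor for the thymic chemokine CCL25, was lower in TMREhi low-ribosomal members, 160 against 216 UMIs and 0.741 (0.60 to 0.913). It was higher in the high-ribosomal class, 268 against 205 and 1.31 (1.09 to 1.57), and near equal in TMRElo, 59 against 55. Ccr4, a chemokine receptor of thymocytes entering the medulla, had 7 against 17 UMIs in the TMREhi low-ribosomal class, 0.412 (0.144 to 1.04). Ccr2, which marks IL-17-committed γδ cells in the periphery, had 38 UMIs in both groups there. Itgae, Itgal and Itgb2, the genes of the αE, αL and β2 integrin chains, had 54 against 49, 45 against 49 and 30 against 33 UMIs.

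Cxcr6, a chemokine receptor of tissue-homing lymphocytes, went opposite ways. It had 45 against 26 UMIs in the TMREhi low-ribosomal class, 1.73 (1.04 to 2.92), and 48 against 75 in the high-ribosomal class, 0.640 (0.436 to 0.931). In TMRElo none of the 46 members held a Cxcr6 UMI while 10 of 46 comparators did with 11 UMIs, at least 3.66-fold lower in members against a floor of 3 UMIs over the group. The list of sphingosine 1-phosphate signalling genes, which holds the enzymes, carriers and receptors of the lipid, had 0 of 11 genes past the limit in the TMREhi low-ribosomal class, with a median of -0.10. Its median in the high-ribosomal class was 0.20 over 14 genes, and in TMRElo 0.21 over 5.

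**Figure D2:**
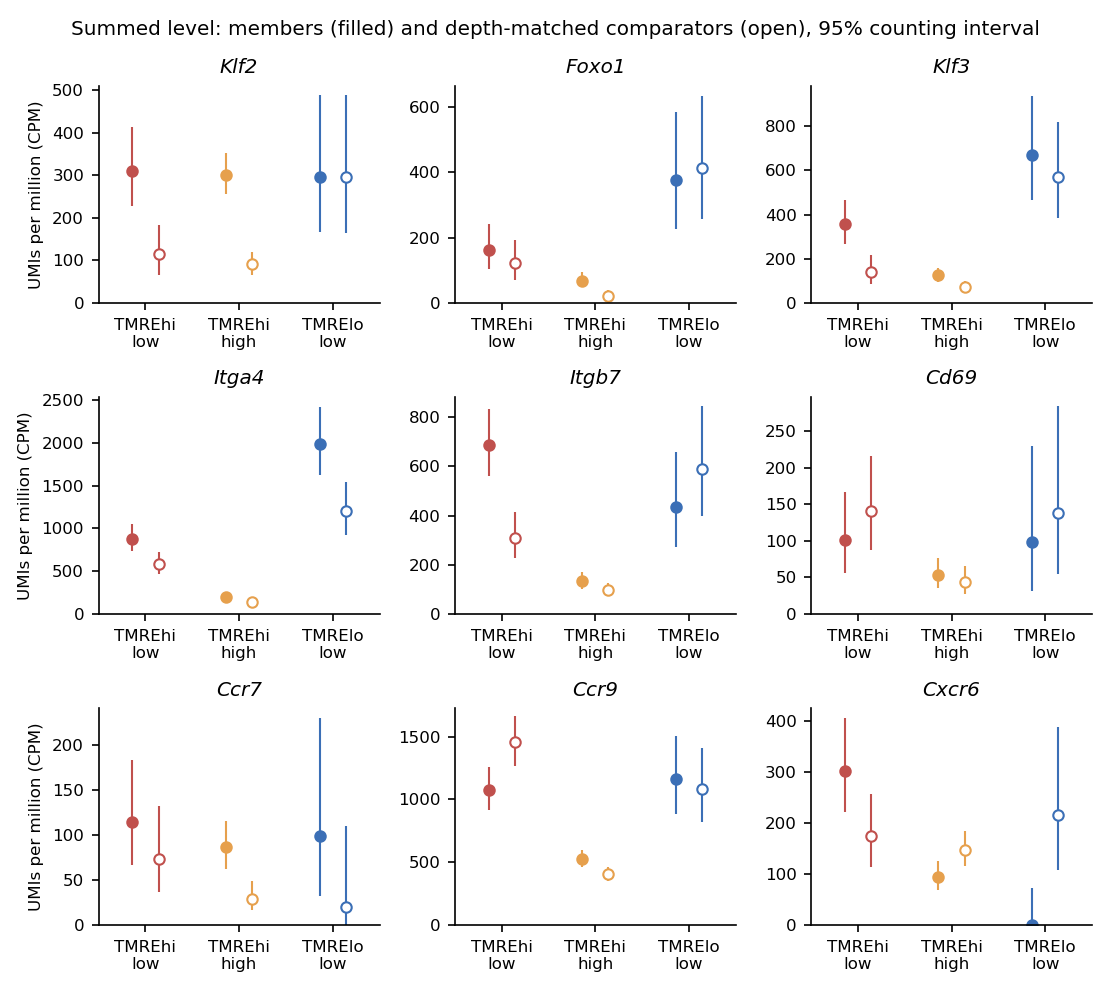
Levels in CPM of the marker, egress and homing genes in members and in depth-matched comparators of 3 classes, with exact 95% Poisson intervals of the summed UMIs as bars. Klf2 of members lies well above comparators in both TMREhi classes and level with them in TMRElo, and Cxcr6 is at 0 in TMRElo members.

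Ms4a4b had the highest ratio of the ranked genes in TMREhi low-ribosomal members. It encodes a tetraspan membrane protein of T cells. It stood at 1562 CPM in low-ribosomal members and 472 in comparators, 232 against 70 UMIs, a ratio of 3.31 (2.53 to 4.39), and was seen in 55 of 82 members against 26 of 82. In the high-ribosomal class it had 299 against 78 UMIs, a ratio of 3.83 (2.98 to 4.98). In TMRElo it stood at 1717 against 1320 CPM, with a ratio of 1.30 (0.935 to 1.82). TMRElo comparators thus already carried Ms4a4b near the level of members.

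Il7r, which encodes the interleukin-7 receptor α chain and is a target of FOXO1 in T cells, was higher in both low-ribosomal classes. In TMREhi it stood at 1333 against 546 CPM, 198 against 81 UMIs, a ratio of 2.44 (1.88 to 3.21). In TMRElo it stood at 1066 against 512 CPM, 54 against 26 UMIs, a ratio of 2.08 (1.28 to 3.46). Levels in the high-ribosomal class were 254 and 224 CPM, with a ratio of 1.13 (0.872 to 1.47). With only members of at least 2 S1pr1 UMIs, of which there were 11, the log2 ratio there was 2.03 in place of 0.18. Of 15 cytokine receptor genes tested in the TMREhi low-ribosomal class, 10 lay above 0 with a median of 0.47, and Il7r, Il17ra and Il18r1 passed the limit. Il17ra had 28 against 13 UMIs, and 20 against 8 in the high-ribosomal class. Il18r1, the receptor for interleukin-18, had 20 against 5 UMIs in the low-ribosomal class but 10 in both groups of the high-ribosomal class. Il2rb, the β chain of the interleukin-2 and interleukin-15 receptors, had 56 against 26 UMIs in the high-ribosomal class, 2.15 (1.33 to 3.57), and 3 against 17 in TMRElo.

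The 12 highest genes of the TMREhi low-ribosomal class, taken among genes with at least 50 UMIs and on the same side of 0 in another class, also held Klf3 and several genes of membrane and cytoskeleton. Ahnak, a large scaffold protein under the membrane, had 55 against 18 UMIs but 33 against 32 in the high-ribosomal class. Lgals1, which encodes galectin-1, had 78 against 29 and 692 against 487 UMIs, ratios of 2.69 (1.74 to 4.27) and 1.42 (1.26 to 1.60). S100a10, a partner of annexin A2, had 40 against 15 and 492 against 255, the latter a ratio of 1.93 (1.65 to 2.25). Lgals1 and S100a10 were above their counting error in both TMREhi classes, and Ahnak in the low-ribosomal class only, where its log2 ratio was 0.53 in place of 1.56 with comparators matched on mitochondrial share too. Atp1b3, a subunit of the sodium pump, had 91 against 34 UMIs, 105 against 68, and 34 against 22 in TMRElo. Cd96, an adhesion receptor of T and NK cells, had 44 against 16 and 40 against 24, and Arl6ip5 58 against 21 and 93 against 76. Klrd1, which encodes the NK receptor chain CD94, had 87 against 35 UMIs in the low-ribosomal class, a ratio of 2.49 (1.66 to 3.79). Its UMIs came from 20 members and 9 comparators, and with comparators matched on mitochondrial share too its log2 ratio was -0.04, so no direction is drawn for it.

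Kit, the stem cell factor receptor gene of early progenitors, had 53 against 18 UMIs in the TMREhi low-ribosomal class, 2.94 (1.70 to 5.34), and 29 against 18 in the high-ribosomal class, 1.61. In TMRElo it was lower, with 8 against 35 UMIs and a ratio of 0.229 (0.0917 to 0.502). Cd7, an early T and NK lineage membrane protein, had the same pattern, 155 against 85 UMIs and 1.82 (1.39 to 2.40) in the TMREhi low-ribosomal class but 7 against 55 and 0.127 (0.049 to 0.281) in TMRElo. Kit is also a mast cell marker. In the TMREhi low-ribosomal class mast cell markers summed to 75 against 102 UMIs. Of the 2 tested there, Kit was higher and the other was lower, at a log2 ratio of -1.95. In TMRElo, markers of NK cells and innate lymphoid cells summed to 3 UMIs in members against 29 in comparators, in 3 and 11 barcodes. Mast cell markers summed there to 8 against 37, but Kit itself gave 8 and 35 of these, so the sum says little beyond Kit. The part that these cells play in the TMRElo values of Cxcr6, Kit, Cd7 and Il2rb was not tested.

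**Figure D3:**
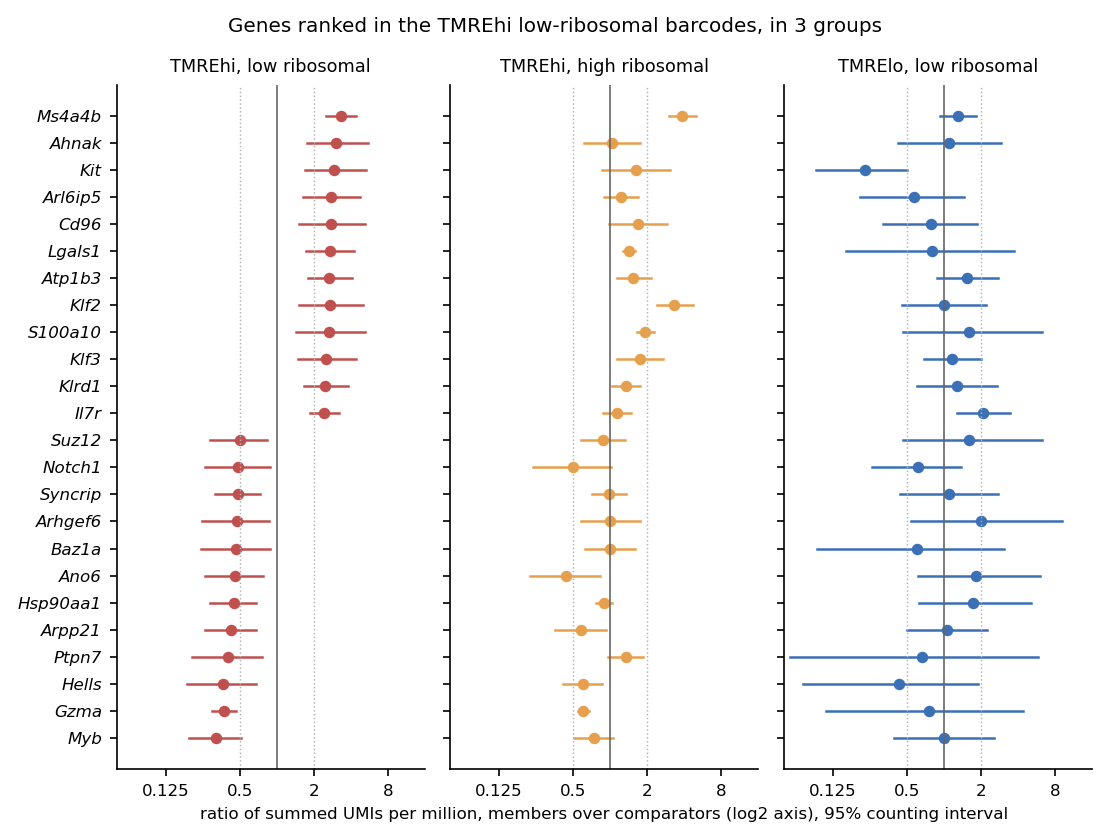
Ratio of members over comparators (log axis, with exact 95% intervals) for the 12 highest and 12 lowest ranked genes of the TMREhi low-ribosomal class, shown in all 3 classes. Ms4a4b, Klf2 and Klf3 lie above 1 in both TMREhi classes, and Kit lies above 1 in TMREhi but below 1 in TMRElo.

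The 12 lowest genes of the TMREhi low-ribosomal class, taken under the same conditions as the 12 highest, were led by Myb. It encodes a transcription factor of progenitor thymocytes. Myb had 24 UMIs in TMREhi low-ribosomal members against 75 in comparators, a ratio of 0.320 (0.193 to 0.513), with 55 against 75 in the high-ribosomal class and 11 in both groups of TMRElo. Arpp21, an RNA-binding protein gene of immature thymocytes, had 27 against 63 and 30 against 52 UMIs, the latter a ratio of 0.577 (0.355 to 0.921). Notch1, the receptor that commits progenitors to the T lineage, had 18 against 37, 13 against 26 and 11 against 18, with ratios of 0.486 (0.261 to 0.876), 0.50 (0.236 to 1.01) and 0.612 (0.261 to 1.37). Notch1 lay below 1 in all 3 classes, clear of its counting error in the first. Dntt, which encodes the terminal transferase that adds bases at receptor joints, had 6 against 17 and 33 against 90 UMIs, with ratios of 0.353 (0.114 to 0.938) and 0.366 (0.238 to 0.552). Of the recombination and αβ-lineage list, 5 genes were tested in the TMREhi low-ribosomal class, 2 above 0 and 3 below with a median of -0.83. The high-ribosomal class had 3 above 0 and 5 below with a median of -0.46, and Cd8b1 passed the limit upward there. In TMRElo all 3 tested genes lay above 0 with a median of 0.40, none past the limit. The list summed there to 142 against 115 UMIs, a ratio of 1.24 (0.960 to 1.60) whose interval holds 1. That list leaves out Rag1, which the rule set to 0.

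Gzma, encoding the protease granzyme A, had 112 against 301 UMIs in the TMREhi low-ribosomal class, a ratio of 0.372 (0.297 to 0.464), and 688 against 1135 in the high-ribosomal class, 0.606 (0.550 to 0.667). In TMRElo it had 3 against 4. With comparators that could hold Rag1 UMIs the low-ribosomal log2 ratio of Gzma was -0.50 in place of -1.42. The cytotoxic list that holds Gzma was mixed. In the low-ribosomal class 9 of 14 tested genes lay above 0, with a median of 0.31, and in the high-ribosomal class 15 genes had a median of 0.19, with Ccl5 and Il2rb past the limit upward and Xcl1, Fcer1g, Tyrobp and Gzmc downward. TMRElo had 3 of 7 above 0 with a median of -0.35, and Cd7 and Il2rb past the limit downward. Ccl5, a chemokine of effector lymphocytes, had 559 against 134 UMIs in the TMREhi high-ribosomal class, of which 177 came from 1 member. In that class macrophage markers summed to 1 UMI in members and 380 in comparators, held by 4 comparator barcodes, and Fcer1g and Tyrobp are also expressed by macrophages. Markers of NK cells and innate lymphoid cells, a list that holds both genes, summed to 183 against 447 in the same class.
The remaining low genes included Hells, a helicase of replicating cells, with 15 against 41 and 51 against 85 UMIs. Ano6, a membrane lipid scramblase gene, had 22 against 48 and 15 against 34. Ptpn7, Hsp90aa1, Baz1a, Arhgef6, Syncrip and Suz12 were the others among the 12 lowest of the TMREhi low-ribosomal class and had 92 against 69, 366 against 411, 39 against 39, 29 against 29, 85 against 87 and 47 against 54 UMIs in the high-ribosomal class. Whether the classes differ was not tested for these genes.

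Cell cycle genes divided by phase. In the TMREhi low-ribosomal class 24 of 26 tested S phase genes lay below 0, with a median log2 ratio of -0.51, and 5 passed the limit downward (Pcna, Rrm1, Rrm2, Cdca7 and Hells) and 0 upward. Genes of the G2 and M phases were balanced there, 18 of 34 above 0 with a median of 0.10. In the high-ribosomal class all 48 tested G2 and M genes lay above 0, with a median of 0.74 and 12 past the limit, while S phase genes had 26 of 34 below 0 and a median of -0.16, which was 0.14 when members held at least 2 S1pr1 UMIs. Mki67, a marker of dividing cells, had 166 against 161 UMIs in the low-ribosomal class and 267 against 147 in the high-ribosomal class, 1.82 (1.48 to 2.24). Top2a, needed to untangle chromosomes at mitosis, had 126 against 148 and 485 against 234. S1pr1-positive barcodes with many ribosomal transcripts thus carried mitotic transcripts at a higher level than their comparators.

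The maturation list, of surface molecules that mature T cells gain or lose, had few genes past the limit. Cd53, a tetraspanin of leukocytes, had 95 against 52, 188 against 96 and 38 against 18 UMIs, with ratios of 1.83 (1.29 to 2.61), 1.96 (1.52 to 2.53) and 2.11 (1.18 to 3.94). It was above its counting error in all 3 classes. In the TMREhi low-ribosomal class the maturation list had 12 of 16 genes above 0 and a median of 0.48, with none past the limit. The high-ribosomal class had 13 of 19 above 0 with a median of 0.33, Cd2 past the limit upward and Cd24a and Ly6d downward, and TMRElo had 6 of 11 above 0 with a median of 0.07 and Cd53 past it. Its members in the TMREhi low-ribosomal class included the class I molecules H2-D1 (167 against 90 UMIs) and H2-K1 (193 against 122), and the glycoprotein Cd52 (169 against 94). Cd24a, the gene of the antigen used in the sort and lost as thymocytes mature, had 40 against 87 UMIs in the high-ribosomal class, a ratio of 0.459 (0.308 to 0.676), but only 6 against 9 in the low-ribosomal class and 1 against 1 in TMRElo. Few Cd24a UMIs were thus seen in low-ribosomal barcodes sorted as CD24+. The totals behind these counts differ. Members summed to 148498 UMIs in the TMREhi low-ribosomal class and 50675 in TMRElo, against 508946 in the high-ribosomal class. These barcodes were also shallower, with a median of 1719 UMIs in TMREhi members against 8991 in the high-ribosomal class. The part that depth plays was not tested.
The GIMAP genes, GTPases that support survival of naive T cells, had medians of 0.62 over 7 genes and 0.77 over 8 in the TMREhi classes and 0.04 over 4 in TMRElo, where 2 lay below 0. Past the limit were 0 of them in the TMREhi low-ribosomal class, Gimap1, Gimap3 and Gimap4 in the high-ribosomal class and Gimap4 in TMRElo. Gimap4 had 149 against 72 UMIs in the high-ribosomal class, 2.07 (1.55 to 2.78), Gimap3 57 against 21, and Gimap6 101 against 62. Stk4, a kinase needed for lymphocyte trafficking and survival, had 59 against 35 and 94 against 48 UMIs in TMREhi, ratios of 1.69 (1.09 to 2.64) and 1.96 (1.37 to 2.83). Id3, an inhibitor of E proteins induced by T cell receptor signals, had 333 against 157 UMIs in the high-ribosomal class, of which 60 came from 1 member, and 27 against 32 in the low-ribosomal class. In TMRElo it had 13 against 3.

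The IL-17 programme showed no common direction, with medians of -0.15 over 14 genes in the TMREhi low-ribosomal class and 0.02 over 16 in the high-ribosomal class. Past the limit were 1 gene upward and 1 downward in the former, and 0 upward and 3 downward in the latter. Maf, a regulator of that fate, had 37 against 52 and 60 against 62 UMIs in these classes. In TMRElo only 3 genes of the list were tested, with a median of 0.92 and none past the limit. In the metabolic lists glycolysis genes had medians of 0.16 and -0.07 in the TMREhi classes and 0.28 in TMRElo, where all 5 tested lay above 0 and none passed the limit. Nuclear genes of the respiratory chain had 0.14 over 59, -0.11 over 77 and, in TMRElo, 0.68 over 3 with Atp5a1 past the limit, and the 13 mitochondrially encoded genes had -0.07, -0.03 and 0.10.

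Overlap between classes was limited. Among the 2947 genes tested in both TMREhi classes, 17 were at least 2-fold higher in both, which is 14.5% of the 117 higher in the low-ribosomal class and 12.9% of the 132 higher in the high-ribosomal class. Over all 2947 genes, 3.97% and 4.48% were higher. The 17, named here after their values were seen, were Acp5, Arid5a, Arl4c, Cd9, Cytip, Ifi27, Il17ra, Klf2, Knstrn, Lfng, Miip, Ms4a4b, Rasa3, Ripor2, Rnf145, Smad7 and Zfp871. Cytip, which regulates integrin adhesion, had 51 against 22 and 130 against 58 UMIs. Ripor2, an inhibitor of the GTPase RhoA in T cell migration, had 43 against 20 and 60 against 15. Lfng, a glycosyltransferase that modifies Notch receptors, had 17 against 5 and 28 against 8, and Rasa3, a Ras-family GTPase activating protein that acts on integrins, 34 against 8 and 33 against 15. Those at least 2-fold lower in both were Ano6, Dntt and Gusb, 2.61% of 115 and 7.5% of 40, where 3.90% and 1.36% of all genes were lower. The Ano6 call in the high-ribosomal class was lost without the 5 deepest members, at a log2 ratio of -0.59 in place of -1.13. Between the low-ribosomal classes of the 2 libraries, 971 genes were tested in both. Gm2682, Il7r and Rassf2 were higher in both, 8.82% of 34 and 7.32% of 41, where 3.50% and 4.22% of all genes were higher. Mdn1 was lower in both, out of 7 and 27 genes, where 0.721% and 2.78% of all genes were lower.

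V segment use was read from the γ or δ segment with the most UMIs in a barcode. Tcrg-V1, Trgv2 and Tcrg-V3 are near-identical in sequence, so their UMIs were summed as the Tcrg-V1 group. Shares are of barcodes with a γ V segment UMI. In the TMREhi low-ribosomal class 35 of 69 members led with the Tcrg-V1 group, 50.7%, against 28 of 63 comparators, 44.4%. For the high-ribosomal class these were 41 of 52, 78.8%, and 36 of 52, 69.2%. In TMRElo they were 17 of 33, 51.5%, and 25 of 37, 67.6%. The intervals of members and comparators overlapped in each class.
Tcrg-V4, a segment found among IL-17-producing γδ cells, led in 13 members and 12 comparators of the TMREhi low-ribosomal class, and in 12 members (36.4%) against 6 comparators (16.2%) of TMRElo. The 2 TMRElo intervals, 20.4 to 54.9 and 6.19 to 32.0, overlapped. Tcrg-V6 led in 6 against 8 barcodes of both TMREhi classes and in 0 of TMRElo. Tcrg-V5, used by the first fetal wave that seeds the epidermis, led in 2 against 5 and in 0 against 2 barcodes, and its UMIs in the high-ribosomal class were 2 against 25. No γ V segment UMI was found in 13 of 82 members and 19 of 82 comparators of the TMREhi low-ribosomal class.
Among δ segments, Trav15-2-dv6-2 led in 6 members and 0 comparators of each TMREhi class, and in 5 against 1 of TMRElo. Its relatives did not share this in the low-ribosomal classes: Trav15-1-dv6-1 led in 2 against 6 barcodes of TMREhi and 1 against 2 of TMRElo, and Trav15d-1-dv6d-1 in 2 against 5 and 0 against 4. In the TMREhi high-ribosomal class Trav15-1-dv6-1 led in 5 against 2 barcodes, with 32 against 9 UMIs. Trav15d-1-dv6d-1 led there in 4 against 4, with 31 against 11 UMIs. These segments are close in sequence and reads may be split among them, so no excess of the group is drawn from 1 of them. The UMIs of Trav15-2-dv6-2 were 12 against 3, 22 against 4 and 8 against 6. Trdv4, the δ segment of the early fetal waves, led in 12 against 17, 8 against 12 and 0 against 2 barcodes, and had 45 against 160 UMIs in the high-ribosomal class. Trdv2-2 led in 10 against 14, 11 against 15, and 10 against 6 in TMRElo.

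**Figure D4:**
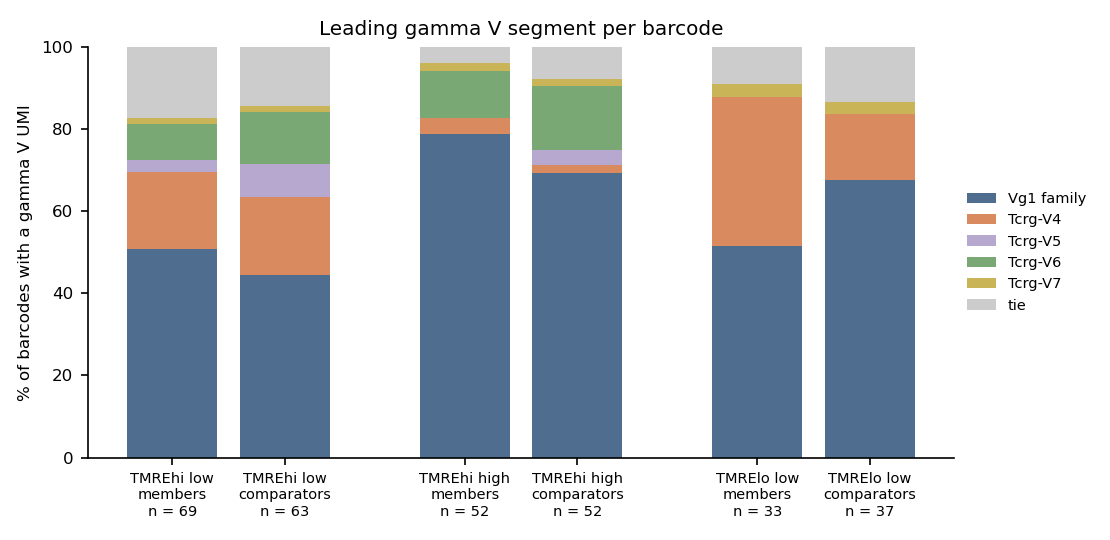
Share of barcodes (percent of those with a γ V segment UMI) by leading γ V segment in members and comparators, with Vg1 family standing for Tcrg-V1, Trgv2 and Tcrg-V3 together. The Tcrg-V1 group leads in most TMREhi high-ribosomal barcodes, and Tcrg-V4 takes 36.4% of TMRElo members against 16.2% of comparators, with overlapping intervals.

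Members were not uniform. TMREhi low-ribosomal members with 2 or more S1pr1 UMIs (25 barcodes) carried 2491 CPM of Ms4a4b, against 1111 in the 57 with 1 UMI, and 24 of 25 held it against 31 of 57. Their Klf2 level was close, 329 against 300 CPM. Gzma stood at 288 against 981 CPM, Maf at 41.2 against 350 and Mki67 at 2100 against 640. In the high-ribosomal class members with 2 or more S1pr1 UMIs had 423 CPM of Klf2 against 264, and in TMRElo 1567 CPM of Il7r against 745 and 2274 of Ms4a4b against 1360. These are descriptions of small groups sharing 1 library, and S1pr1 itself sorted them.
Levels were also read by leading γ V segment. In the TMREhi low-ribosomal class Klf2 stood at 335 CPM (213 to 503) in the 35 members led by the Tcrg-V1 group, at 228 (74.1 to 533) in the 13 led by Tcrg-V4 and at 0 in the 6 led by Tcrg-V6, where the interval reaches 272, so the 3 were not told apart. In the high-ribosomal class Klf2 stood at 185 CPM in the 6 members led by Tcrg-V6, held by 3 of them, and at 300.1 in those led by the Tcrg-V1 group. Gzma in the low-ribosomal class stood at 583 (417 to 794), 2191 (1615 to 2905) and 73.8 CPM (1.87 to 411), and Kit at 554, 137 and 0. The Gzma UMIs were held by 15 of 35, 5 of 13 and 1 of 6 members, so its level rests on few barcodes. Among high-ribosomal members, the 6 led by Tcrg-V6 had 647 CPM of Maf and 1449 of Il7r, against 90 and 171 in the 41 led by the Tcrg-V1 group, and no Mki67 UMI against 596 CPM. In the low-ribosomal class, by contrast, the 6 led by Tcrg-V6 had 22 Mki67 UMIs, held by 2 of them.

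Low-ribosomal members of the 2 sort fractions were also set against each other without matching, so depth differs (medians of 1719 and 1066 UMIs). Of 2120 genes with at least 20 UMIs, 240 were at least 2-fold higher in TMREhi members (11.3%) and 236 lower (11.1%). With UMIs added in proportion to each group's total, an alternative chosen after seeing the data, these counts were 280 and 186. Klf2, at 310 and 296 CPM, and Ms4a4b, at 1562 and 1717, were level between the sort fractions in members. In barcodes without S1pr1, all unmatched comparators taken, Klf2 stood at 66.0 CPM in TMREhi and 216 in TMRElo, and Ms4a4b at 433 and 1305. The ratios of TMREhi over TMRElo in members were 1.05 (0.574 to 2.02) for Klf2 and 0.910 (0.708 to 1.18) for Ms4a4b, and in comparators 0.306 (0.177 to 0.555) and 0.332 (0.267 to 0.415). Whether members and comparators differ in this was not tested. Foxo1 differed in both: 162 against 375 CPM in members and 94.1 against 419 in comparators. Itga4 stood at 882 against 1993 CPM, Gzma at 754 against 59.2, Mki67 at 1118 against 138 and Lgals1 at 525 against 78.9. The nuclear RNA Malat1 stood at 11347 against 30626 CPM, and the part that this difference in RNA content plays was not tested.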

How the data were processed

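The deposited files hold raw UMI counts per gene and barcode, whole numbers made by the authors with Cell Ranger 3.0 on mm10 per the submitters' processing notes (3.0.2 per the file headers). Settings for alignment and cell calling, and the annotation release, are not stated in the labels or headers. No doublets or barcodes were removed beyond the rule. Scrublet marked 2 of 1025 TMREhi barcodes (0 members) and 24 of 133 TMRElo barcodes (14 members) as doublets, and these were kept in the reported values. No barcode sequence was shared by both libraries.

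Each member was paired by optimal assignment with 1 comparator within 1.25-fold of its UMIs. Sums of UMIs were turned into CPM, and log2 ratios used 1 added UMI. Intervals on ratios are exact conditional (Clopper-Pearson), on shares exact binomial and on levels exact Poisson. Named genes were the markers, the egress and FOXO/KLF lists, the 12 highest and 12 lowest genes with at least 50 UMIs, up to 4 genes per other list, and V segments with at least 20 UMIs. Genes named outside this rule were chosen after their values were seen: S1pr4, Cd2, Ly6d, Cd53, Cd24a, Cd8b1, Gimap1, Atp5a1, Il17ra, Il18r1, Il2rb, Ccl5, Xcl1, Fcer1g, Tyrobp, Gzmc, Pcna, Rrm1, Rrm2, Cdca7, Igfbp4 and those of the overlap between classes. The members and lists were chosen with earlier results of these data known. For 1 gene under this rule the values are not reported here. The ratio step was tested on simulated counts. The tools were scipy 1.17.1, scanpy 1.11.5 (with its Scrublet), numpy 2.4.6, matplotlib 3.10.9 and pandas 2.3.3 under Python 3.11.15.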

Additional observations from a re-analysis of the deposited data

Results flagged for a closer look

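Several genes of the low-ribosomal class lay on opposite sides of 0 in the TMREhi and TMRElo libraries. The differences themselves were not tested, since each sort fraction gave 1 library. Kit had a log2 ratio of members over comparators of 1.51 in TMREhi and -2.00 in TMRElo. Cd7 had 0.86 and -2.81, and Cxcr6 had 0.77 and -3.58, the latter resting on 0 UMIs in members against 11 in comparators. Markers of NK cells and innate lymphoid cells summed to 3 UMIs in TMRElo members and 29 in comparators, and their part in these values was not tested. The scavenger receptor gene 5830411N06Rik had -0.64 and 0.93. The mitochondrially encoded mt-Co2 had -0.14 and 0.14, a small difference beside a median mitochondrial share of 17.7% against 19.1% in TMREhi members and comparators and of 14.8% against 14.0% in TMRElo.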

How the results depend on the processing

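No paired analysis was possible because each sort fraction gave 1 library. The share of members moved with the rule: in TMREhi it was 17.7% with at most 10% mitochondrial UMIs, 3.51% with at least 2 S1pr1 UMIs and 7.45% after thinning to 932 UMIs over all barcodes, and in TMRElo 28.6% with at least 1000 genes, 15.8% with at least 2 S1pr1 UMIs and 29.0% after thinning. Counts of genes past 2-fold moved with filters and group sizes. Higher genes of the TMREhi low-ribosomal class were 262 without depth matching, 62 with at least 2 S1pr1 UMIs, 84 with 3 UMIs added, 949 with no low-count filter and 23 with 50 UMIs. Lower genes there were 232 with 2 comparators per member, 668 without matching, 53 with at least 2 S1pr1 UMIs, 82 with 3 UMIs added, 1938 with no filter, 14 with 50 UMIs and 82 in barcodes with a V segment UMI, an alternative chosen after seeing the data. In the TMREhi high-ribosomal class higher genes were 144 with at least 2 S1pr1 UMIs, 987 with no filter and 71 with 50 UMIs, and lower genes 356 without matching, 83, 1742 and 36 under those 3 settings. In TMRElo higher genes were 28 with at least 2 S1pr1 UMIs, 19 without called doublets, 25 with 3 UMIs added, 2123 with no filter and 3 with 50 UMIs, and lower genes 72 without matching, 10, 18, 17, 1030 and 1. Without the filter the contrast between members of the sort fractions gave 920 and 2327 genes. The cause of these shifts was not tested, except that the filters and smaller groups set how many genes could pass.

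The FOXO and KLF median of TMRElo was 0.32 without depth matching. Turned in direction were Klrd1 in the TMREhi low-ribosomal class, log2 -0.0402 when comparators were matched on mitochondrial share too, the γδ marker median of the high-ribosomal class, -0.0433 under the same matching, and its S phase median, 0.14 with at least 2 S1pr1 UMIs. Without depth matching the log2 ratio of Ccr4 was -0.12 in the TMREhi low-ribosomal class and that of Foxo3 -0.41 in the high-ribosomal class, and Baz1a in the former had -0.30 with matching on mitochondrial share. Il7r in TMRElo ranged from 0.97 to 2.42. Klf2 stayed at log2 1.17 to 2.20 and 1.23 to 1.87 in the TMREhi classes and at -0.09 to 0.43 in TMRElo. A limit of 10% mitochondrial UMIs left fewer than 10 pairs in the low-ribosomal classes, as did 1000 genes in TMRElo, and 2 comparators per member could not be found in TMRElo.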

Other observations

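Among genes the comparisons above do not describe, Igfbp4, which encodes an insulin-like growth factor binding protein, had 380 UMIs in TMREhi high-ribosomal members against 121 in comparators, 38 against 43 in the low-ribosomal class and 17 against 4 in TMRElo low-ribosomal barcodes. It was chosen after its values were seen. In the high-ribosomal class members with a Klf2 UMI carried 884 CPM of Igfbp4, against 48 in members without.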
